A study of Mus musculus with 64 samples.

Results

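The lysosomal proteases, membrane proteins and proton pump of mouse pancreatic tumor cells were followed across 8 tumor lines, each grown alone and with fibroblasts. The genes were chosen by symbol only: cathepsins (Cts and a single letter), lysosome-associated membrane proteins (Lamp1 to Lamp3), subunits of the vacuolar ATPase (V-ATPase; Atp6v0 and Atp6v1 with a subunit letter) and the accessory proteins Atp6ap1 and Atp6ap2, without pseudogenes. This gave 45 of the 39017 genes in the count table. They were 18 cathepsins, 3 LAMPs, 2 accessory proteins, 9 subunits of the membrane sector V0 and 13 subunits of the cytosolic sector V1. The a3 subunit of V0, whose symbol is Tcirg1, falls outside this symbol rule and was kept with the other lysosomal genes.

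The tumor cells came from the KPC model of pancreatic cancer, in which a Cre recombinase driven by the Pdx1 promoter acts in the epithelium of the pancreas and switches on, among others, a mutant Trp53 allele beside a normal one, and the labels give the strain background as C57BL/6 mixed. Clones E, H, K, M, N, T and V were subcloned from 1 polyclonal line of 1 mouse tumor, so each is a single clone, and the labels add a line, KPC1, whose origin the sources used here do not describe. The 64 libraries of polyadenylated RNA comprised, per line, 4 of mono-cultures and 4 of cells kept for 48 h with fibroblasts. The latter were recovered by fluorescence-activated sorting on the green fluorescent protein of the tumor cells. Clones E, H and V form metabolic group 1 and clones K, M, N and T group 2 in the study, and KPC1 is in neither. The labels do not say whether mono-cultures were sorted too, and nothing says that the 4 libraries of a group came from separate cultures, so the p-values measure the spread between these libraries, which may be technical.

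Lysosomes degrade proteins, lipids and sugars at acid pH. The V-ATPase makes them acid: its V1 sector splits ATP and turns a rotor, and its V0 sector carries protons through the membrane. Cathepsins are the main lysosomal proteases, most of them cysteine proteases (Ctsb, Ctsl and others), some aspartic (Ctsd, Ctse) and some serine proteases (Ctsa, Ctsg), and Lamp1 and Lamp2 coat the inner face of the lysosomal membrane with sugar chains. Pancreatic tumor cells are known for a high lysosomal activity that feeds them with amino acids from autophagy and engulfed protein, and the transcription factors of the MiT/TFE family (Tfeb, Tfe3 and Mitf) are known to drive many lysosomal genes through sites built on the letters CACGTG.

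Promoter windows of the mouse RefSeq annotation (build GRCm38.p6, 250 bases before to 50 bases after a start) were available for 35 of the 45 genes in 39 windows, and 9 of the 39 windows (23.1%) held CACGTG, a palindrome that reads the same on both strands, against 7.15% of all 32851 windows. The longer palindrome TCACGTGA, which contains it, was in 5 of the 39 (12.8%) and in 0.974% of all windows. Each match was in a different gene. The 9 genes with CACGTG were Atp6v0b, Atp6v0d1, Atp6v0e, Atp6v1a, Ctsa, Ctsd, Ctsf, Ctsl and Lamp1. Stretches are shown for 6 of them, which between them cover the membrane proteins, both sectors of the pump and the proteases. The 6 were picked with their changes in coculture known, and the change of Ctsf, not shown, differed among the lines as well. Each is written 5′ to 3′ on the strand of the gene, with CACGTG in capitals. A match is a description of the letters and not evidence of binding.
Lamp1, chr8:13159071-13159170, plus strand: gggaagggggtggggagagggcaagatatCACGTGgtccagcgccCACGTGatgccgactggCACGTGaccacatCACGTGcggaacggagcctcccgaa
Atp6v0b, chr4:117887320-117887419, minus strand: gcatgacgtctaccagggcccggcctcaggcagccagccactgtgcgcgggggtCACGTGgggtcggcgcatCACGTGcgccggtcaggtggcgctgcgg
Atp6v0d1, chr8:105566050-105566149, minus strand: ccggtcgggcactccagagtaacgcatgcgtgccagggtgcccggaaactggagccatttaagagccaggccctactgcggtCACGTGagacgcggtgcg
Atp6v1a, chr16:44139335-44139434, minus strand: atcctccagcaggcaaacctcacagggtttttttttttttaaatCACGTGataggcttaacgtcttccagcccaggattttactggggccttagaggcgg
Ctsa, chr2:164833757-164833786, plus strand: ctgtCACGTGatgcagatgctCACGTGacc
Ctsd, chr7:142387908-142387937, minus strand: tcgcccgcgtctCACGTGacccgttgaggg
The Lamp1 stretch holds 4 copies, those of Atp6v0b and Ctsa hold 2 each, and the other three hold 1 each.

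Library totals ran from 11178721 to 21333683 counts (median 15648010). Counts were scaled to the library size after edgeR's TMM normalization (CPM), so that 3 counts in a library stood for 0.139 to 0.283 CPM. The deposited RPKM values, which also divide by gene length, were used to compare levels between genes. Unless another test is named, adjusted p-values are from edgeR's quasi-likelihood test with Benjamini-Hochberg adjustment over all genes tested, a gene was called at an adjusted p under 0.1, and errors are SD over 4 libraries for levels and standard errors for log2 fold changes. Of the 45 genes, 33 passed edgeR's filter on low counts in the fit of the 64 libraries, namely 12 cathepsins, 4 LAMPs and accessory proteins, 7 V0 subunits and 10 V1 subunits. The other 12 had few or no counts. Ctsj, Ctsm, Ctsq and Ctsr, a rodent family of placental proteases, had 0 counts in all libraries. Ctss of antigen-presenting cells had 5 counts in all, Ctsg of neutrophil granules 19, the osteoclast subunit Atp6v0d2 1, Atp6v1b1 18, Atp6v1e2 1, Atp6v1g3 8 and Atp6v0e2 105. Lamp3, known from dendritic and lung epithelial cells, had 115 counts in all and at most 7 in a library, but its RPKM values had a median of 1.23 over the groups, so the deposited tables differ for it and it is not compared further.

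Per length, the most abundant genes were proteases and Lamp1. Over the 16 groups of line and culture, the median RPKM was 329 for the endopeptidase Ctsl (range 197 to 646), 212 for Lamp1 (139 to 263), 186 for the carboxypeptidase Ctsz (115 to 211), 115 for Ctsb (76.6 to 159), 89.4 for Ctsd (65.5 to 168) and 79.3 for Ctsa (60.2 to 119). The accessory protein Atp6ap1, which helps to assemble the pump, followed at 69.7 (37.6 to 102), ahead of the V1 subunits Atp6v1g1 at 60.4 and Atp6v1f at 59.1. The 10 V1 subunits tested ran from a median RPKM of 0.081 (Atp6v1c2) to 60.4, and the 7 V0 subunits from 0.055 (Atp6v0a4) to 31.01 (Atp6v0c, the proteolipid of the proton ring). The ranges of neighbors in this order overlapped widely, so the order holds for groups of genes and not for pairs. The length implied by counts and RPKM was within 1.5 times the summed exon length of the annotation for 25 of 32 genes and farther from it for Atp6v0c, Atp6v1c1, Atp6v1d, Atp6v1g1, Ctsd, Ctsf and Ctsl, whose place in the order depends on the gene model used.

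**Figure D1:**
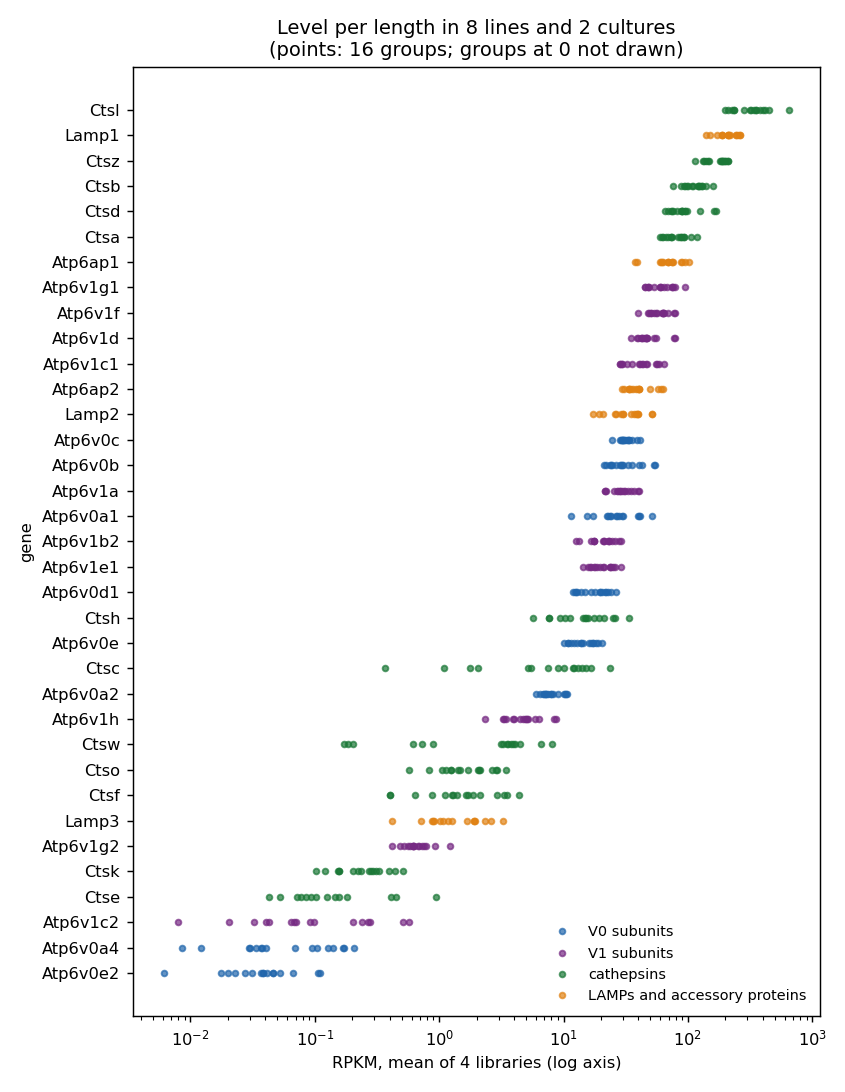
Level per gene length (RPKM, log axis) of the members with a median above 0, each point the mean of 4 libraries in 1 of 16 groups of line and culture, colored by class. Ctsl (median 329) and Lamp1 (212) lead the order, and Ctsc spreads most widely among the abundant genes, from 0.369 to 23.7.

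Where a subunit of the V-ATPase has several isoforms, 1 of them held most of the transcripts in each group. Of the summed RPKM of an isoform family, Atp6v0d1 held at least 99.98%, Atp6v1b2 at least 99.9%, Atp6v1e1 at least 99.9%, Atp6v0e at least 99.0%, Atp6v1c1 at least 98.8% and Atp6v1g1 between 97.4% and 99.4%. The neuronal isoform Atp6v1g2 held 0.552% to 2.65%, and the epithelial isoforms Atp6v1c2 and Atp6v0a4 held at most 1.23% and 0.576%. The a subunit, which decides where in the cell the pump sits, was shared: Atp6v0a1 held 63.8% to 84.9% and Atp6v0a2 14.8% to 36.01%, with Tcirg1 left out of this sum.

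The 8 lines differed in nearly every member before any fibroblast was present. In mono-culture 32 of 32 members tested differed among the lines by the F test of edgeR, as did 96.9% of all 13624 genes tested, and in coculture 32 of 32 with 93.8% of all 13458 genes, so a difference among lines was the rule for the whole transcriptome. Over the 28 members above 5 CPM in some line, the median ratio of the highest to the lowest line was 2.01 in mono-culture and 2.09 in coculture, and for 14 of the 28 the ratio was smaller in coculture. The widest differences were in cathepsins. Ctsc, the dipeptidyl peptidase that activates granule serine proteases, averaged 151 ± 20.7 CPM in clone H and 2.34 ± 1.2 CPM in clone K, a ratio of 64.6. In clone H its libraries were at 154, 159.99, 169.9 and 122 CPM, and in clone K at 0.908, 3.51, 1.81 and 3.13 CPM. From low to high the lines ran K, M, E, T, N, KPC1, V and H, and the neighbors M and E, T and N, and KPC1 and V overlapped in their library values. In coculture the ratio of the highest to the lowest line for Ctsc was 15.4.

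Ctsw, a protease otherwise known from cytotoxic lymphocytes, averaged 9.14 ± 0.92 CPM in clone H and 0.232 ± 0.222 CPM in clone E in mono-culture, a ratio of 39.4 that rests on 15 counts in all in E. Ctsf, a widely expressed cysteine protease, averaged 7.98 ± 0.523 CPM in H against 0.874 ± 0.66 CPM in clone E, a ratio of 9.13. Ctsh, an aminopeptidase, was highest in clone H at 151, 188, 179 and 151 CPM and lowest in clone E at 29.6, 41.5, 38 and 35.1 CPM, so that clone H led for all 4 of these proteases. Ctsd, the main aspartic protease of lysosomes, had its highest values in clone V, at 743, 895, 717 and 810.4 CPM.

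Among membrane and accessory proteins the spread was narrower, at most 2.91-fold in mono-culture. Lamp2, also a receptor of chaperone-mediated autophagy, ranged from 193 ± 37.7 CPM in clone N to 561 ± 77.1 CPM in clone K (ratio 2.91). Atp6ap1 was likewise lowest in N at 119 ± 17.4 CPM and highest in K at 328 ± 21.9 CPM (2.77), and Lamp1 ran from 381 ± 85.1 CPM in N to 738 ± 64.4 CPM in E (1.94). Clone N thus had the lowest mean of these 3 genes in mono-culture.

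Of the V0 subunits above 5 CPM in some line, Atp6v0a1 differed most in mono-culture, from 105 ± 8.82 CPM in KPC1 to 360.2 ± 24.1 CPM in clone T (ratio 3.43). Atp6v0d1, which couples the rotor to the proton ring, ran from 23.6 ± 1.41 CPM in KPC1 to 50.5 ± 4.3 CPM in M (2.14), and Atp6v0e from 35.9 ± 3.53 in N to 74.1 ± 7.37 CPM in K (2.06). Of the V1 subunits above 5 CPM, the regulatory subunit Atp6v1h had the widest spread, at 97.2, 96.3, 95.7 and 89.1 CPM in clone K and 19.96, 27.7, 25.1 and 22.7 CPM in clone V (ratio 3.96). Atp6v1b2, part of the ATP-splitting head, was highest in E at 162 ± 3.67 CPM and lowest in M at 76.8 ± 5.1 CPM (2.11), and Atp6v1e1 of the outer stalk was highest in M at 133 ± 8.03 and lowest in H at 67.6 ± 5.86 CPM (1.96). The line at the top of the order therefore changed from subunit to subunit, K, M, E and T each leading for some.

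**Figure D2:**
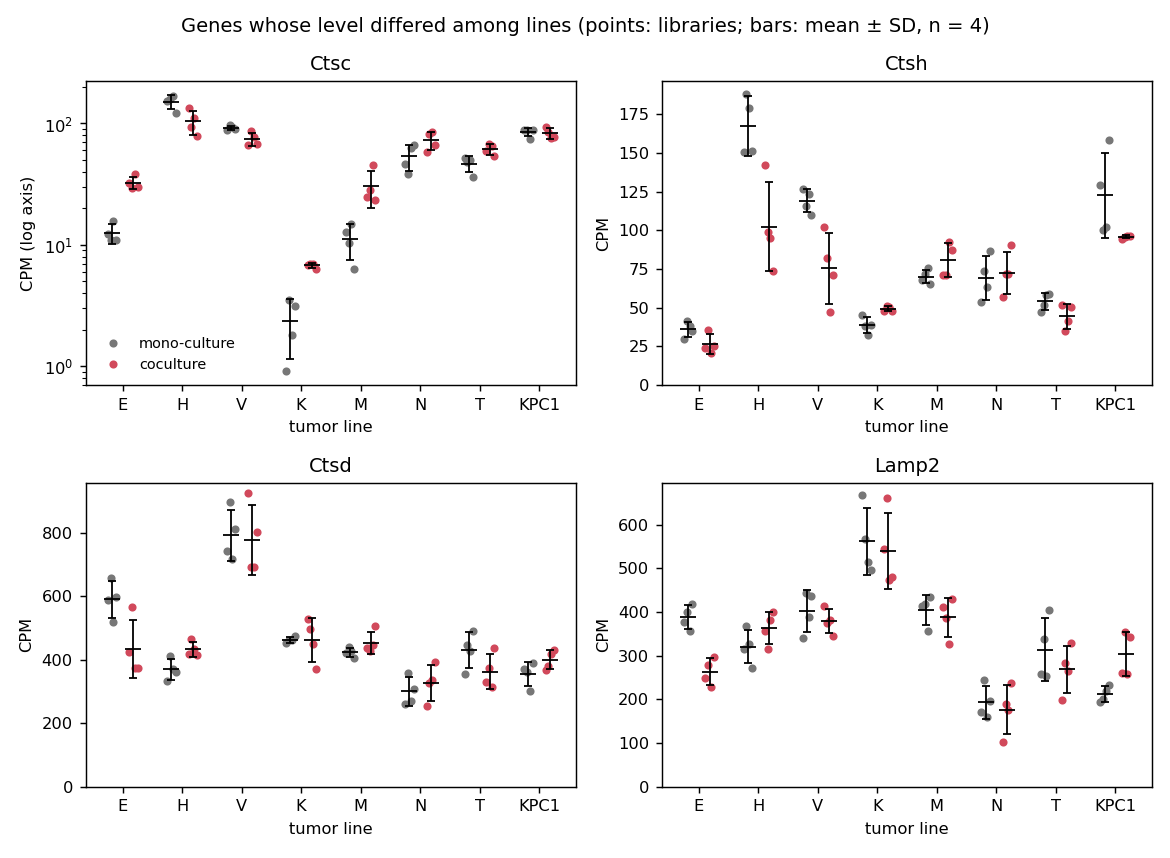
CPM of Ctsc (log axis), Ctsh, Ctsd and Lamp2 by line, gray for mono-culture and red for coculture, with 1 point per library and bars for mean ± SD (n = 4). Ctsc averages 151 CPM in clone H and 2.34 CPM in clone K in mono-culture, and Lamp2 falls in clone E and rises in KPC1 in coculture.

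In coculture more of the 33 members rose than fell in H (16 higher, 5 lower), V (15 and 8) and KPC1 (14 and 6). E had 8 higher and 12 lower, and T had 10 and 8. Few were called in K (2 and 1), M (3 and 5) and N (6 and 3). Some of these counts rested on single replicate numbers. Without replicate 4, H had 9 higher, and without replicate 3, KPC1 had 8 higher and N had 3. The lower counts came to 3 in H and 4 in V without replicate 2, 5 in T without replicate 3, and 2 in KPC1 without replicate 1, 2 or 4. Clone M had 1 higher without replicate 1, 2 or 3 and 1 lower without replicate 2 or 4. Clone N had 1 lower without replicate 1 or 4 and 0 without replicate 2, and K had 1 higher without replicate 1 or 3, and 2 lower without replicate 2 but 0 without replicate 4. The calls kept without each replicate number in turn were 8 of 16 higher and 2 of 5 lower in H, 10 of 15 and 3 of 8 in V, 6 of 14 and 0 of 6 in KPC1, and 5 of 8 and 8 of 12 in E. They were 9 of 10 and 4 of 8 in T, 1 of 2 and 0 of 1 in K, 1 of 3 and 0 of 5 in M, and 2 of 6 and 0 of 3 in N. Of all 14134 genes tested, 21.4% were higher and 22.6% lower in H, 30% and 31.5% in V, and 20.1% and 19% in KPC1. The shares were 32.1% and 29.2% in E and 31.5% and 30.7% in T. The 8 and 12 members of E and the 10 and 8 of T are therefore not read as a direction. Clone K had 12.5% and 8.02%, clone M 21.6% and 17.3%, and clone N 20% and 17.4%. The median log2 fold change of the members was 0.25 in H, 0.21 in V and 0.24 in KPC1, against −0.027 in E, 0.071 in N, −0.034 in K, −0.069 in T and −0.063 in M, where the medians of all genes lay between −0.011 and 0.034. By the F test of the interaction of line and culture, the response of 25 of the 33 members differed among the lines, as did that of 71.3% of all genes. Each of the 33 was called in at least 1 line, 22 in 1 direction and 11 in both. The shares of all genes with such calls were not computed, so these counts are not read as a trait of the members.

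In a pattern chosen after the values were seen, 11 members were higher in coculture in each of H, V and KPC1, as were 11.5% of all genes. They were the accessory proteins Atp6ap1 and Atp6ap2, the V0 subunits Atp6v0b and Atp6v0d1, the V1 subunits Atp6v1a, Atp6v1b2, Atp6v1c1, Atp6v1d, Atp6v1g1 and Atp6v1h, and the protease Ctsb. Of these 11, Atp6ap1, Atp6v0d1, Atp6v1b2 and Atp6v1h were also lower in E, a combination found in 0.616% of all genes, or 87 of 14134. Without replicate 3 the members higher in all 3 lines numbered 5 (7.09% of genes), with 1 of them lower in E, and without replicate 4 they numbered 7 (7.66%) and 3. Atp6ap2, Atp6v0b and Atp6v1h kept their calls in H, V and KPC1 without each replicate number in turn. The summed CPM of V0 and V1 in coculture was 1.25 times that of mono-culture in H, 1.32 times in V and 1.19 times in KPC1, against 1.07 in N, 0.976 in T, 0.968 in E, 0.948 in K and 0.929 in M.

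Most tested markers of fibroblasts were higher in the sorted cells of coculture, and whether their transcripts came from fibroblasts or from the tumor cells cannot be told apart here. Of 20 fibroblast markers, 18 were tested and between 10 (H) and 16 (M) were higher in coculture in each line. In each of H and V 2 were lower, and 0 in the other lines. Dcn, Fap, Lum, Mfap5, Postn and Thy1 were picked from the list for their low values in mono-culture, so their low start was fixed by that choice. They summed to means of at most 0.107 CPM in mono-culture and between 56.8 CPM (V) and 97.6 CPM (N) in coculture, with single libraries from 14.6 to 156 CPM. In coculture those sums were 66.8 ± 27.3 CPM in H, 56.8 ± 36.95 in V and 60.9 ± 27.5 in KPC1. They were 60.8 ± 23.3 CPM in E, where some members moved in the opposite direction. The whole list summed to group means of 6316 to 18821 CPM in mono-culture and 7587 to 17795 CPM in coculture, since the tumor lines themselves expressed Fn1, Vim and Sparc, and 4 to 6 of its 20 genes were at 0 in mono-culture. Its sum in coculture was 0.945 times that of mono-culture in H and 0.940 in K, and between 1.08 (V) and 1.57 (N) in the other lines. Lysosomal genes are expressed by fibroblasts as well, and the part of fibroblast RNA in the changes was not tested. In such bulk samples fewer cells of a kind and less RNA per cell cannot be told apart. The leukocyte genes C1qa, C1qb, C1qc and Tyrobp were at 0 in all groups, and the 11 leukocyte markers in the table summed to 20.7 to 110 CPM. Their sum in coculture was 1.94 times that of mono-culture in E, 1.35 in K, 1.30 in M and 1.00 in N. It was 0.866 in T, 0.795 in V, 0.613 in KPC1 and 0.587 in H. In the shared response 2 leukocyte markers were tested, 1 higher and 1 lower. The 10 epithelial markers summed to 1877 to 3862 CPM, with at most 1 of them at 0 in a group. In coculture the epithelial sum was 0.709 times that of mono-culture in H, 0.710 in V, 0.773 in KPC1 and 0.703 in T, against 0.961 in E, 0.890 in N, 1.07 in K and 1.28 in M. Of 9 epithelial markers tested, 0 were higher and 3, 4 and 3 lower in H, V and KPC1. The counts higher and lower were 1 and 5 in T, 2 and 3 in E and 1 and 3 in N. They were 1 and 1 in K and 3 and 1 in M. The shares of all genes in these lines, given above, reached 32.1% higher and 31.5% lower. The part of these marker changes in the results was not tested.

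**Figure D3:**
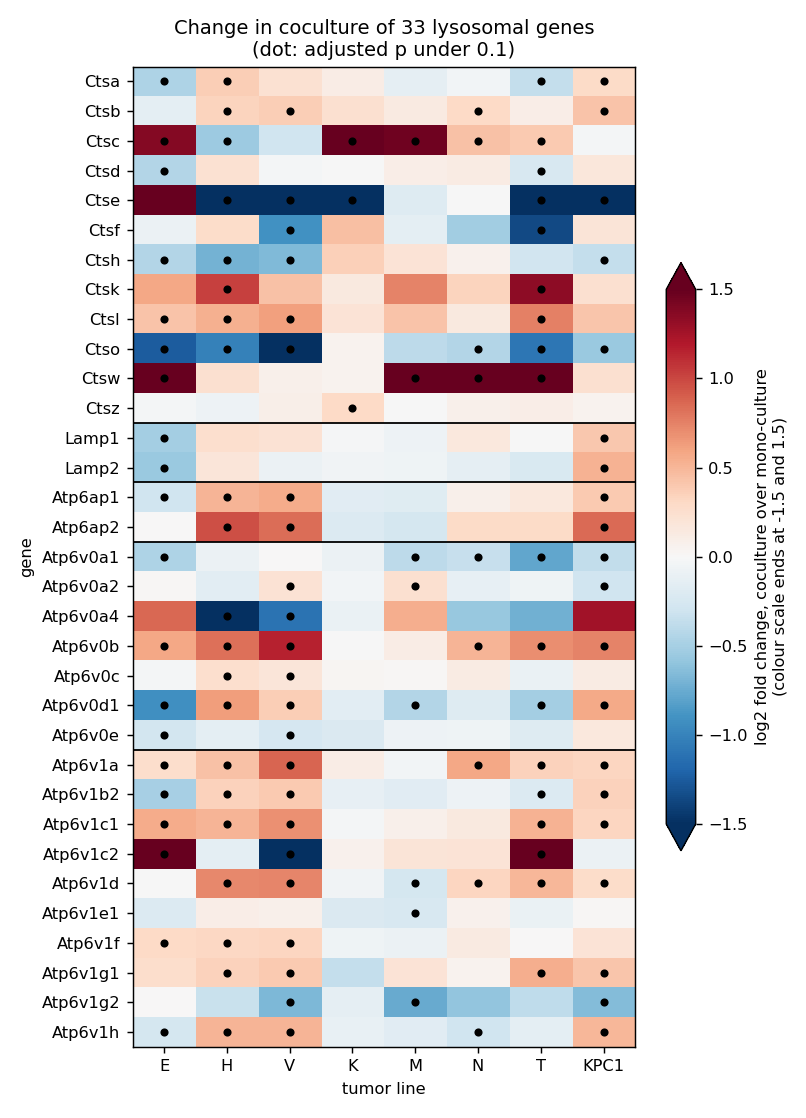
Log2 fold change in coculture over mono-culture of the 33 members tested (rows, by class) in the 8 lines (columns), red for higher and blue for lower, with a dot where the adjusted p was under 0.1 and the color scale ending at −1.5 and 1.5. Columns H, V and KPC1 are mostly red across the V-ATPase rows, with 10, 11 and 8 of 17 subunits higher, while E is split and K has no dot there.

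The LAMPs moved in opposite directions in E and KPC1. Lamp1 in clone E was at 686, 827, 696 and 743 CPM in mono-culture and 466, 595, 509 and 511 CPM in coculture, with all coculture libraries below all mono-culture libraries (log2 fold change −0.50 ± 0.13, adjusted p = 8.37e-04). In KPC1 it was at 483, 497, 453 and 495 CPM in mono-culture and 553, 676, 676 and 648 CPM in coculture, with no overlap in the other direction (0.41 ± 0.13, adjusted p = 0.0131). Lamp1 was not called in the other lines, where its log2 fold change lay between −0.077 (M) and 0.25 (H). Lamp2 followed the same split, from 356 to 418 CPM to 227 to 298 CPM in E (−0.56 ± 0.16, adjusted p = 0.00256) and from 194 to 233.51 CPM to 258 to 353 CPM in KPC1 (0.52 ± 0.16, adjusted p = 0.0107). The test of the difference among lines gave an adjusted p of 0.0012 for Lamp1 and 0.00463 for Lamp2. The calls in KPC1 were each lost without 1 replicate number: Lamp1 in KPC1 (replicate 3, adjusted p = 0.123) and Lamp2 in KPC1 (replicate 2, adjusted p = 0.137). The exons of Lamp1 overlap those of Grtp1 on the opposite strand by up to 177 bases, and whether reads were counted by strand is not stated in the sources used here.

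The accessory proteins rose in H, V and KPC1. Atp6ap2, the prorenin receptor and a partner in assembling the pump, was at 91.4, 90.8, 106 and 75.2 CPM in mono-culture and 134, 158, 182 and 234.49 CPM in coculture in clone H (0.96 ± 0.18, adjusted p = 2.55e-05). Clone V had 79.4, 93.6, 109 and 96.4 CPM in mono-culture and 176, 159.96, 182 and 161 CPM in coculture (0.84 ± 0.18, adjusted p = 6.14e-05). KPC1 had 94, 93.7, 95.4 and 89.3 CPM in mono-culture and 129.8, 170.2, 170.2 and 200.4 CPM in coculture (0.85 ± 0.18, adjusted p = 2.47e-04). In these 3 lines no coculture library overlapped a mono-culture library. Atp6ap2 was not called in the other 5, and in clone E its log2 fold change was 0.006 ± 0.17. Atp6ap1 was higher in H (0.51 ± 0.11, adjusted p = 2.39e-04), V (0.55 ± 0.11, adjusted p = 2.47e-05) and KPC1 (0.39 ± 0.11, adjusted p = 0.00521) and lower in E (−0.30 ± 0.11, adjusted p = 0.018). Leaving out 1 replicate number ended the call of Atp6ap1 in KPC1 (replicate 3, adjusted p = 0.155). The response differed among lines at an adjusted p of 1.15e-05 for Atp6ap2 and 2.14e-06 for Atp6ap1.

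In the V0 sector, Atp6v0d1 moved in opposite directions between lines (adjusted p for the difference among lines 1.61e-07). In clone E it was at 40.9, 43.1, 38.2 and 42.7 CPM in mono-culture and 14.7, 25.8, 18.6 and 28.4 CPM in coculture, all lower (−0.92 ± 0.16, adjusted p = 5.46e-06). In clone H it was at 21.3, 26.1, 25.2 and 26.3 CPM in mono-culture and 32.7, 39.5, 36.1 and 43.8 CPM in coculture, all higher (0.62 ± 0.16, adjusted p = 0.00217). KPC1 had 24.6, 22.1, 22.7 and 25 CPM in mono-culture and 29.5, 37.2, 41.8 and 31.3 CPM in coculture, again all higher (0.57 ± 0.16, adjusted p = 0.0066). Atp6v0d1 was also higher in V (0.36 ± 0.16, adjusted p = 0.0518), where the libraries of the cultures overlapped, and lower in T (−0.51 ± 0.16, adjusted p = 0.00606) and M (−0.44 ± 0.16, adjusted p = 0.0331). The M call was lost without replicate 2 (−0.41, adjusted p = 0.131) or 3 (−0.41, adjusted p = 0.136). Lost as well were those of Atp6v0d1 in V (replicate 1 or 3, adjusted p up to 0.224) and T (replicate 3, adjusted p = 0.109). In K and N its log2 fold change was −0.16 ± 0.16 and −0.20 ± 0.16 and was not called.

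Atp6v0b, the c″ subunit of the proton ring, went the same way in nearly all lines. It was higher in V (1.15 ± 0.17, adjusted p = 1.94e-07), H (0.83 ± 0.17), KPC1 (0.75 ± 0.17), T (0.70 ± 0.17), E (0.58 ± 0.17) and N (0.51 ± 0.17), with the N call lost without replicate 3 (0.47, adjusted p = 0.141). In clone V, the line of its largest change, Atp6v0b was at 47, 43.6, 49.7 and 44.9 CPM in mono-culture and 137, 84.2, 102 and 87.8 CPM in coculture. In K and M it was not called, at −0.008 ± 0.17 and 0.11 ± 0.17. Its exons overlap the antisense gene Gm12841 by up to 243 bases. Atp6v0a1 was lower in 5 lines, most in T, from 353, 351, 341 and 395 CPM to 251, 164, 192 and 235 CPM (−0.77 ± 0.16, adjusted p = 4.24e-05), and in E, M, KPC1 and N at log2 fold changes of −0.46, −0.39, −0.37 and −0.35. The calls in M and N were lost on leaving out replicate 1 (−0.42, adjusted p = 0.124, and −0.33, adjusted p = 0.247) or 4 (−0.30, adjusted p = 0.253, and −0.39, adjusted p = 0.118), and that in N also without replicate 2 (−0.22, adjusted p = 0.327). Atp6v0a2 was higher in V (0.22 ± 0.11) and M (0.24 ± 0.11) and lower in KPC1 (−0.30 ± 0.11), and the M call was lost without replicate 1 (0.23, adjusted p = 0.238), 2 (0.24, adjusted p = 0.224) or 3 (0.25, adjusted p = 0.170). Atp6v0c was higher in H (0.25 ± 0.093) and V (0.18 ± 0.092), and Atp6v0e was lower in E (−0.28 ± 0.12) and V (−0.25 ± 0.12). Further calls lost without 1 replicate number were those of Atp6v0a1 in E (replicate 4, adjusted p = 0.119) and KPC1 (replicate 1, 2 or 4, adjusted p up to 0.426). The same held for Atp6v0a2 in V (replicate 1, 2 or 4, adjusted p up to 0.272) and KPC1 (replicate 1 or 2, adjusted p up to 0.352). It held too for Atp6v0c in H (replicate 4, adjusted p = 0.101) and V (replicate 1, 3 or 4, adjusted p up to 0.361), and for Atp6v0e in E (replicate 3, adjusted p = 0.189) and V (replicate 2, 3 or 4, adjusted p up to 0.393).

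In the V1 sector, the response was higher in most lines for some subunits and opposed for others. The catalytic subunit Atp6v1a was higher in 6 lines, most in V, from 130.1, 142, 146 and 134 CPM to 269.6, 237, 264 and 244 CPM (0.88 ± 0.13, adjusted p = 7.89e-08), then N (0.58 ± 0.13, adjusted p = 3.70e-04), H (0.44 ± 0.13), T (0.34 ± 0.13), KPC1 (0.32 ± 0.13) and E (0.26 ± 0.13). Atp6v1c1, which links the 2 sectors, was higher in V (0.69 ± 0.10, adjusted p = 1.92e-07), E (0.56 ± 0.10), T (0.52 ± 0.10), H (0.51 ± 0.10) and KPC1 (0.33 ± 0.10). The rotor subunit Atp6v1d was higher in V (0.73 ± 0.11, adjusted p = 4.04e-07) and H (0.72 ± 0.11, adjusted p = 2.33e-06), and also in T, N and KPC1 at 0.50, 0.32 and 0.27, but lower in M at −0.26. Atp6v1g1 was higher in T, KPC1, V and H at 0.55, 0.42, 0.39 and 0.34, and Atp6v1f, another rotor subunit, in V, H and E at 0.32, 0.31 and 0.30. Atp6v1e1 was called in M only, lower (−0.23 ± 0.11), with its test of a difference among lines at an adjusted p of 0.181. Calls that were lost without 1 replicate number were those of Atp6v1a in E (replicate 1, 2 or 3, adjusted p up to 0.23) and KPC1 (replicate 3 or 4, adjusted p up to 0.532) and Atp6v1c1 in KPC1 (replicate 2, adjusted p = 0.163). So were Atp6v1d in M (replicate 2, 3 or 4, adjusted p up to 0.306), N (replicate 2 or 4, adjusted p up to 0.136) and KPC1 (replicate 3 or 4, adjusted p up to 0.732). Of the smaller subunits, lost calls were those of Atp6v1g1 in H (replicate 1, 2 or 3, adjusted p up to 0.244), V (replicate 1, adjusted p = 0.336) and KPC1 (replicate 2 or 3, adjusted p up to 0.455). The remaining ones were Atp6v1f in E (replicate 4, adjusted p = 0.275), H (replicate 4, adjusted p = 0.205) and V (replicate 1, adjusted p = 0.342) and Atp6v1e1 in M (replicate 2, 3 or 4, adjusted p up to 0.383).

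Atp6v1h and Atp6v1b2 were each called higher in 3 lines and lower in 2. Atp6v1d, described above, and Atp6v1c2, at low counts, were also called in both directions, each lower in 1 line. Atp6v1h in clone H was at 33, 42.6, 38.6 and 33.7 CPM in mono-culture and 43.8, 55.7, 55.1 and 56.5 CPM in coculture (0.52 ± 0.12, adjusted p = 5.72e-04). Clone V had 19.96, 27.7, 25.1 and 22.7 CPM in mono-culture and 36, 33, 35.9 and 31.6 CPM in coculture (0.51 ± 0.12, adjusted p = 3.24e-04), and neither line showed overlap. It was higher in KPC1 too (0.50 ± 0.12, adjusted p = 0.00123) and lower in E, at 45.6, 52.4, 45.3 and 47.8 CPM in mono-culture and 41.4, 37.3, 36.4 and 43.6 CPM in coculture (−0.27 ± 0.12, adjusted p = 0.0523). In N it was lower as well (−0.29 ± 0.12, adjusted p = 0.0548), a call lost without replicate 2 (−0.24, adjusted p = 0.241) or 4 (−0.31, adjusted p = 0.117). Atp6v1b2 fell in E from 161, 161, 159 and 168 CPM to 111, 126, 94.1 and 129.8 CPM (−0.49 ± 0.10, adjusted p = 6.72e-05) and in T (−0.21 ± 0.10), and rose in V (0.39 ± 0.10, adjusted p = 0.00129), KPC1 (0.35 ± 0.10) and H (0.34 ± 0.10). The difference among lines had an adjusted p of 1.11e-06 for Atp6v1b2 and 1.29e-06 for Atp6v1h. The exons of Atp6v1h overlap those of Rgs20 on the opposite strand by up to 127 bases. Leaving out 1 replicate number ended the calls of Atp6v1h in E (replicate 2 or 3, adjusted p up to 0.195) and Atp6v1b2 in H (replicate 4, adjusted p = 0.106) and T (replicate 1 or 4, adjusted p up to 0.403).

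**Figure D4:**
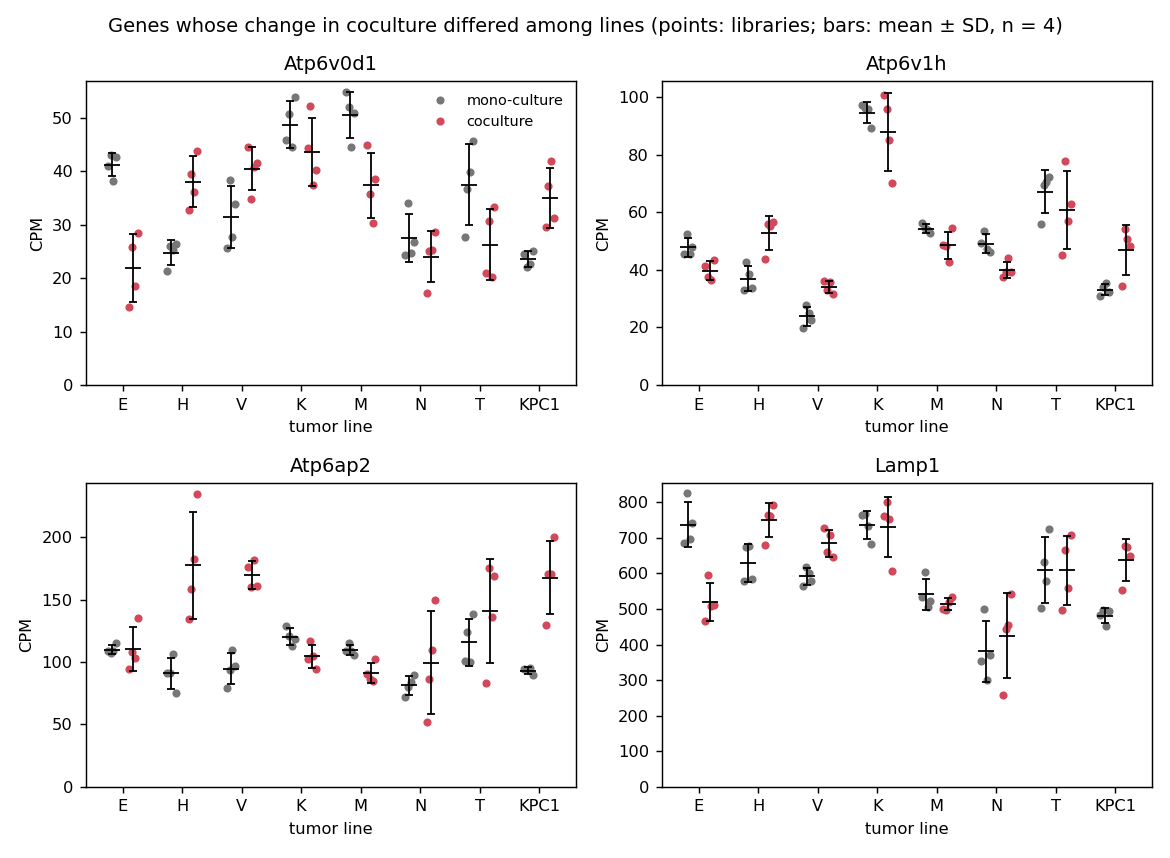
CPM of Atp6v0d1, Atp6v1h, Atp6ap2 and Lamp1 by line, gray for mono-culture and red for coculture, with 1 point per library and bars for mean ± SD (n = 4). Atp6v0d1 falls from a mean of 41.2 to 21.9 CPM in clone E and rises from 24.7 to 38 CPM in clone H and from 23.6 to 35 CPM in KPC1.

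The isoforms at low levels changed strongly in single lines, on few reads. Atp6v1c2 in clone T had 3 counts in 4 mono-culture libraries and 43 in coculture, a ratio of 16.1 per normalized read with a 95% exact interval of 5.16 to 81.3, which covers counting error only (3.78 ± 0.59, adjusted p = 3.77e-07). In clone E Atp6v1c2 had 10 and 26 counts (ratio 3.13, 1.46 to 7.27) and was called higher (1.59 ± 0.52, adjusted p = 0.00766). In V it had 14 and 3 (0.22, 0.0406 to 0.789) and was called lower (−1.99 ± 0.72, adjusted p = 0.0157), which was lost without replicate 3 (−1.53, adjusted p = 0.104). KPC1 held the highest level of Atp6v1c2, 1.31 ± 0.264 CPM in mono-culture and 1.22 ± 0.25 in coculture. Atp6v0a4 was called lower in V (−1.10 ± 0.49, adjusted p = 0.0501) and in H, where 15 and 4 counts gave a ratio of 0.237 (0.0573 to 0.744) and the call rested on the mono-culture library 3 at 0.649 CPM, since without replicate 3 the log2 fold change was 0.15 (adjusted p = 0.940). Without replicate 4 it was −1.79 (adjusted p = 0.108). Atp6v1g2 was lower in M (−0.75 ± 0.27), V (−0.67 ± 0.28) and KPC1 (−0.65 ± 0.30), and the calls in M without replicate 2 (−0.69, adjusted p = 0.164) or 4 (−0.63, adjusted p = 0.142) and in KPC1 without replicate 1 (−0.69, adjusted p = 0.106), 2 (−0.71, adjusted p = 0.198) or 4 (−0.37, adjusted p = 0.441) were lost. Calls in V that were lost were Atp6v0a4 in V (replicate 1 or 2, adjusted p up to 0.239) and Atp6v1g2 in V (replicate 2 or 4, adjusted p up to 0.285). The exons of Atp6v0a4 overlap those of D630045J12Rik on the same strand by up to 259 bases and Tmem213 on the opposite strand by up to 62. Those of Atp6v1c2 and Atp6v1g2 overlap Pdia6 and Nfkbil1 on the opposite strand by up to 50 and 144 bases. The part of such reads in these few counts was not tested.

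Among the cathepsins, Ctsc rose where it had been low and fell where it had been highest. In clone E it was at 12.3, 10.9, 15.7 and 11 CPM in mono-culture and 32.2, 29.5, 38 and 30.2 CPM in coculture (1.38 ± 0.20, adjusted p = 1.18e-07). Clone K had 0.908, 3.51, 1.81 and 3.13 CPM in mono-culture and 6.8, 6.96, 6.94 and 6.32 CPM in coculture (1.53 ± 0.26, adjusted p = 1.19e-05). Clone M had 12.8, 10.4, 14.8 and 6.32 CPM in mono-culture and 24.6, 28.3, 45.6 and 23.3 CPM in coculture (1.46 ± 0.21, adjusted p = 2.32e-07). In these 3 lines, the lowest in mono-culture, all coculture libraries were above all mono-culture libraries. In clone H, the highest in mono-culture, Ctsc was at 154, 159.99, 169.9 and 122 CPM in mono-culture and 133, 93.9, 111 and 78.4 CPM in coculture and was lower, though the libraries overlapped (−0.54 ± 0.19, adjusted p = 0.0198). It was also higher in N (0.44 ± 0.19) and T (0.40 ± 0.19) and not called in V (−0.30 ± 0.19) or KPC1 (−0.034 ± 0.19), and the adjusted p of the difference among lines, 1.68e-09, was the lowest of the members. Leaving out 1 replicate number ended the calls of Ctsc in H (replicate 2, adjusted p = 0.133), N (replicate 1, 2 or 3, adjusted p up to 0.475) and T (replicate 2, 3 or 4, adjusted p up to 0.187). The mono-culture libraries enter both the level and the change, so these orders are not independent.

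Ctsh was lower in coculture in H (−0.71 ± 0.17, adjusted p = 7.76e-04), V (−0.66 ± 0.17, adjusted p = 8.90e-04), E (−0.44 ± 0.17) and KPC1 (−0.36 ± 0.17) and was not called in the other 4 lines. The calls of Ctsh in E (replicate 3, adjusted p = 0.171) and KPC1 (replicate 1, 2 or 4, adjusted p up to 0.456) were lost without 1 replicate number. Ctsw was higher in the lines that had little of it: in clone T its libraries were at 0.292, 0.43, 0.259 and 0.117 CPM in mono-culture and 4.37, 4.96, 3.45 and 4.36 CPM in coculture (19 and 259 counts, 3.91 ± 0.53, adjusted p = 1.68e-08). Clone N had 0.375, 0.519, 1.39 and 2.42 CPM in mono-culture and 2.64, 4.55, 6.79 and 9.72 CPM in coculture (2.31 ± 0.44, adjusted p = 5.91e-05). Ctsw was also higher in E, with 15 and 48 counts (1.89 ± 0.67, adjusted p = 0.0139), and in M (1.498 ± 0.62, adjusted p = 0.0577), a call lost without replicate 1 (1.45, adjusted p = 0.115), 2 (1.501, adjusted p = 0.129) or 3 (1.29, adjusted p = 0.206). In H, V, K and KPC1, where Ctsw was between 4.56 and 9.14 CPM in mono-culture, it was not called. As for Ctsc, the mono-culture libraries enter both the level and the change of Ctsw, so these are not independent. The exons of Ctsw overlap those of Fibp on the opposite strand by up to 9 bases.

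Ctsa, which as well as being a carboxypeptidase protects lysosomal galactosidase and neuraminidase, was lower in E (−0.46 ± 0.13, adjusted p = 0.00215) and T (−0.35 ± 0.13) and higher in H (0.37 ± 0.13) and KPC1 (0.29 ± 0.13). Ctsd was lower in E, at 588, 658, 517 and 597 CPM in mono-culture and 424, 567, 374 and 374 CPM in coculture (−0.44 ± 0.12, adjusted p = 0.00197), and in T (−0.25 ± 0.12), and was not called in the other 6 lines. Ctsf was lower in T, at 5.08, 7.74, 6.33 and 9.96 CPM in mono-culture and 2.67, 2.81, 1.48 and 4.5 CPM in coculture (−1.35 ± 0.32, adjusted p = 3.07e-04), and in V (−0.91 ± 0.33). Ctsz was called in K only, higher (0.30 ± 0.11), which was lost without replicate 1 (0.24, adjusted p = 0.336) or 3 (0.25, adjusted p = 0.301), and its test of a difference among lines had an adjusted p of 0.475. Leaving out 1 replicate number ended the calls of Ctsa in H (replicate 4, adjusted p = 0.103), T (replicate 3, adjusted p = 0.119) and KPC1 (replicate 3 or 4, adjusted p up to 0.507). It also ended those of Ctsd in T (replicate 2 or 3, adjusted p up to 0.314) and Ctsf in V (replicate 2, adjusted p = 0.126). Ctsa has exons that overlap those of Neurl2 and Pltp on the opposite strand, by up to 324 and 311 bases.

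With the line taken as the replicate, counts of the 4 libraries of each line and culture were summed, and the response shared by the 8 lines was tested on 16 sums with the line as a covariate. Of the 33 members, 10 were higher and 5 lower, where 27.2% of all 14478 genes tested were higher and 27.4% lower, and the median log2 fold change of the members was 0.061 against −0.001 for all genes. The 10 were Ctsl, Atp6v0b, Atp6v1a, Atp6v1c1, Ctsk, Ctsb, Ctsw, Atp6v1g1, Atp6v1d and Atp6ap2, and the 5 were Ctso, Ctse, Atp6v0a1, Atp6v1g2 and Atp6v0e. Lamp1 (0.048 ± 0.092) and Lamp2 (−0.065 ± 0.10) were not among them.

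Ctsl had the smallest adjusted p, with a log2 fold change of 0.44 ± 0.074, adjusted p = 0.00232, and was above 0 in 8 of 8 lines. In clone V, where its level was highest, Ctsl was at 829.6, 769, 1073 and 847 CPM in mono-culture and 1521, 1250.4, 1334 and 1299.5 CPM in coculture. Clone T had 389, 433, 476 and 389.5 CPM in mono-culture and 640.3, 779, 786 and 654 CPM in coculture, and neither line showed overlap. It was also called higher in H and E, and leaving out 1 replicate number ended the calls of Ctsl in H (replicate 4, adjusted p = 0.139) and E (replicate 3 or 4, adjusted p up to 0.328). The test of a difference among lines gave an adjusted p of 0.49. In clone N the libraries of both cultures fell into a low pair, replicates 1 and 2, and a high pair, replicates 3 and 4, at 223, 229, 640.4 and 623 CPM in mono-culture and 271, 357, 635 and 640.3 CPM in coculture, and the log2 fold change, not called there, was 0.15 ± 0.20. The exons of Ctsl overlap the antisense gene Gm47123 by up to 977 bases and a pseudogene on the same strand, Gm49230, by up to 395 bases.

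Atp6v0b was higher at 0.57 ± 0.12, adjusted p = 0.00521 and Atp6v1a at 0.36 ± 0.092, adjusted p = 0.0111, each above 0 in 7 of 8 lines. Atp6v1c1 followed at 0.34 ± 0.087, adjusted p = 0.0112, also above 0 in 7 of 8 lines. Ctsb, the most widely studied cysteine cathepsin in tumors, was higher at 0.21 ± 0.069, adjusted p = 0.029, above 0 in 7 of 8 lines, and was called within H (0.33 ± 0.12), V (0.37 ± 0.12), N (0.29 ± 0.12) and KPC1 (0.43 ± 0.12). In KPC1, the line of its largest change, Ctsb was at 688, 624, 560.0 and 580.3 CPM in mono-culture and 772, 893, 814 and 817 CPM in coculture. The calls of Ctsb in H (replicate 3 or 4, adjusted p up to 0.105) and N (replicate 3 or 4, adjusted p up to 0.316) were lost without 1 replicate number. Its exons overlap those of Fdft1 on the opposite strand by up to 774 bases. Ctsk, a collagen-degrading protease of osteoclasts and fibroblasts, was higher at 0.60 ± 0.17, adjusted p = 0.0183 and above 0 in 8 of 8 lines, but never exceeded 1.05 CPM. Within lines Ctsk was called in T, on 9 and 21 counts (1.34 ± 0.50, adjusted p = 0.0219), and in H, on 16 and 37 counts (1.02 ± 0.42, adjusted p = 0.0503), where leaving out replicate 2 (0.69, adjusted p = 0.275) or 4 (0.72, adjusted p = 0.364) ended the call.

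Ctso, a little-studied cysteine cathepsin, was the member of smallest adjusted p among those that were lower (−0.79 ± 0.17, adjusted p = 0.00603), below 0 in 7 of 8 lines. Clone V had 10.1, 11.1, 6.74 and 8.97 CPM in mono-culture and 2.54, 3.99, 2.65 and 3.34 CPM in coculture (−1.56 ± 0.21, adjusted p = 1.34e-08). Clone E had 16.5, 18.4, 17 and 20.9 CPM in mono-culture and 8.43, 10.7, 4.47 and 7.02 CPM in coculture (−1.25 ± 0.19, adjusted p = 3.10e-07). Clone T had 13.2, 17.5, 14.9 and 19.4 CPM in mono-culture and 7.95, 6.46, 6.83 and 9.45 CPM in coculture (−1.08 ± 0.19, adjusted p = 3.81e-06). The cultures did not overlap in any of these 3 lines. It was lower in H as well (−1.02 ± 0.20, adjusted p = 5.61e-05). The calls in N and KPC1 (−0.43 ± 0.19 and −0.55 ± 0.21) were lost on leaving out replicate 4 (−0.36, adjusted p = 0.271, and −0.54, adjusted p = 0.115), as was that in N without replicate 1 (−0.48, adjusted p = 0.124) or 2 (−0.46, adjusted p = 0.139) and that in KPC1 without replicate 3 (−0.37, adjusted p = 0.176). Clone K was apart, at 6.81, 7.3, 4.23 and 7.58 CPM in mono-culture and 6.33, 7.17, 5.96 and 7.31 CPM in coculture (0.047 ± 0.20).

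Ctse, an aspartic protease of gastric and pancreatic epithelium, was lower at −1.504 ± 0.41, adjusted p = 0.0142. Clone T had the most, at 2.8, 2.79, 5.3 and 2.4 CPM in mono-culture and 0.587, 0.261, 0.431 and 0.872 CPM in coculture (−2.62 ± 0.43, adjusted p = 1.05e-06). Clone V was at 1.63, 0.871, 1.68 and 1.48 CPM in mono-culture and 0.268, 0.203, 0.301 and 0.17 CPM in coculture (−2.54 ± 0.50, adjusted p = 3.13e-05), with no overlap in either line. Ctse was also lower in K (−1.85 ± 0.46), H (−1.78 ± 0.59) and KPC1 (−1.61 ± 0.58), where the calls were lost without replicate 4 in K (−1.02, adjusted p = 0.198), 2 in H (−1.51, adjusted p = 0.106) and 3 in KPC1 (−1.27, adjusted p = 0.182). In clone E it had 0 counts in mono-culture and 2 in coculture, for which no fold is given. Atp6v0a1 was lower at −0.31 ± 0.086, adjusted p = 0.0147, Atp6v1g2 at −0.44 ± 0.13, adjusted p = 0.0176 and Atp6v0e at −0.14 ± 0.059, adjusted p = 0.0801, each below 0 in 7 of 8 lines.

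**Figure D5:**
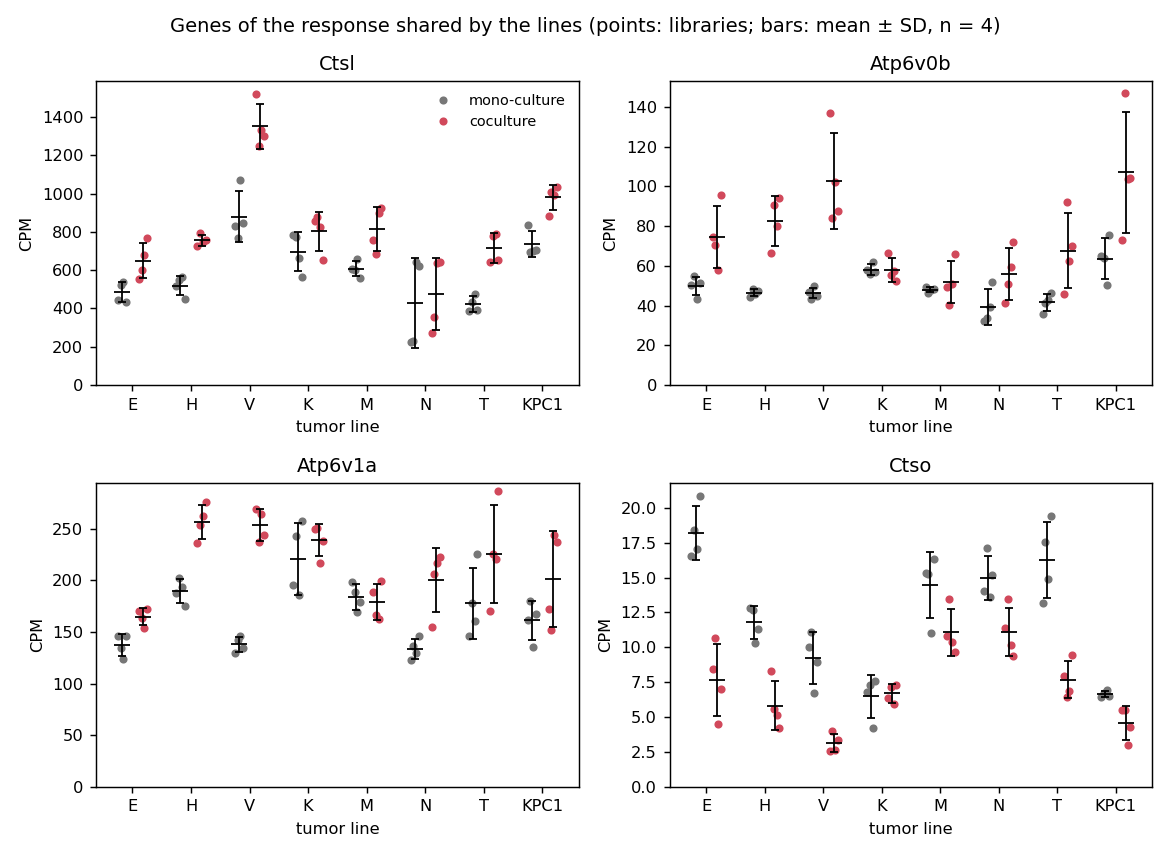
CPM of Ctsl, Atp6v0b, Atp6v1a and Ctso by line, gray for mono-culture and red for coculture, with 1 point per library and bars for mean ± SD (n = 4). In clone V, Ctsl rises from 880 to 1351 CPM and Ctso falls from 9.22 to 3.13 CPM, while the N libraries of Ctsl form a low and a high pair in both cultures.

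The remaining calls of the shared response were weaker. Ctsw (1.13 ± 0.43, adjusted p = 0.0553) lost the call without clone E (1.04, adjusted p = 0.115) or N (0.96, adjusted p = 0.123). Atp6v1g1 (0.22 ± 0.093, adjusted p = 0.074), Atp6v1d (0.28 ± 0.12, adjusted p = 0.0746), Atp6v0e and Atp6ap2 (0.34 ± 0.15, adjusted p = 0.0989) lost it on leaving out each of several lines. Atp6ap2 fell short without H, V, N, T or KPC1 (adjusted p between 0.140 and 0.210), as did Atp6v1d without the same lines (0.108 to 0.167). Atp6v1g1 fell short without E, H, V, M, T or KPC1 (0.113 to 0.174) and Atp6v0e without E, H, V, K, N or T (0.116 to 0.173). Leaving out the libraries of replicate 2, 3 or 4 ended the call of Atp6ap2 (0.109, 0.111 and 0.170), replicate 3 that of Atp6v1d (0.114), replicate 2 that of Atp6v1g1 (0.125) and replicates 2 or 4 that of Atp6v0e (0.105 and 0.157).

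The metabolic groups of the study were set against each other with clones as replicates, 3 in group 1 and 4 in group 2, and without KPC1. No member was called by edgeR in mono-culture, in coculture or in the interaction of group and culture, where 0% of genes were higher and 0% lower in mono-culture, 0% and 0.00679% in coculture and 0% and 0.00637% in the interaction. At an unadjusted p under 0.05 there was 1 member in mono-culture, 2 in coculture and 5 in the interaction. DESeq2 called 0 members in either culture and 1 in the interaction, Ctsh, lower in group 1 (−0.69 ± 0.20, adjusted p = 0.0558 by DESeq2). Shares of all genes at that unadjusted p, or called by DESeq2, are not given here. None of these counts is therefore read as a difference between the groups. In mono-culture the smallest p-values were those of Atp6v1h, with a log2 fold change of −0.87 ± 0.32 in group 1 over group 2 (adjusted p = 0.888), Ctsb (−0.33 ± 0.16, adjusted p = 0.888) and Ctsd (0.53 ± 0.28, adjusted p = 0.888). In coculture they were those of Atp6v0b (0.60 ± 0.17, adjusted p = 0.581), Ctse (−1.41 ± 0.59, adjusted p = 0.581) and Atp6ap2 (0.52 ± 0.23, adjusted p = 0.581). For the interaction they were those of Ctsh (−0.68 ± 0.17, adjusted p = 0.569), Atp6v1f (0.32 ± 0.11, adjusted p = 0.641) and Ctso (−0.80 ± 0.29, adjusted p = 0.656). Clones E, H and V share a group, and yet E had Atp6v0d1, Atp6v1h, Atp6v1b2 and Atp6ap1 lower in coculture while H and V had them higher.

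The other genes of the lysosome, in lists written by hand, also differed in direction from line to line. Of 40 further hydrolases and their activators, all tested, more were lower in E (3 higher, 26 lower), T (7 and 20) and M (1 and 14), and more were higher in H (16 and 3), V (15 and 8) and KPC1 (17 and 4), with K at 4 and 1 and N at 9 and 5. The shares of all genes in these lines, given above, ran from 12.5% to 32.1% higher and from 8.02% to 31.5% lower. Of 23 further membrane proteins, 1 was higher and 13 lower in E, 3 and 11 in T, 0 and 7 in M and 2 and 6 in N. The counts were 7 and 9 in V, 8 and 6 in H, 10 and 4 in KPC1 and 2 and 1 in K. In V 30% of all genes were higher and 31.5% lower, so its 7 and 9 are not read as a direction. In the shared response, where 27.2% of all genes were higher and 27.4% lower, the hydrolases had 8 of 40 higher and 8 lower, both below these shares. They were led by Naglu (0.34 ± 0.061), Manba (0.74 ± 0.15) and Scpep1 (0.33 ± 0.067) and by Ids (−0.72 ± 0.11), Arsb (−0.86 ± 0.16) and Fuca1 (−0.32 ± 0.084), which degrade sugar chains other than the peptidase Scpep1. The membrane proteins had 3 higher, Cd63 (0.32 ± 0.078), Cd68 (1.37 ± 0.35) and the cholesterol exporter Npc1 (0.37 ± 0.12), and 7 lower, led by the potassium and proton channel Tmem175 (−0.65 ± 0.13), the cystine exporter Ctns (−0.81 ± 0.17) and the amino acid exporter Slc36a1 (−0.71 ± 0.16). The median log2 fold change was −0.028 for the hydrolases and −0.13 for the membrane proteins.

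Of 18 MiT/TFE factors and lysosomal mTORC1 components tested, 5 were higher and 4 lower in the shared response (median 0.092). For this list and those that follow, the shares of all genes were 27.2% higher and 27.4% lower. The 5 and 4 are near these shares and are not read as a trait of the list. The genes called were led by Mitf (0.57 ± 0.13), Rraga (0.33 ± 0.074) and Rptor (0.23 ± 0.053) and by Lamtor1 (−0.29 ± 0.064), Tfeb (−0.90 ± 0.21) and Flcn (−0.36 ± 0.13). The transcript of Tfeb, the factor best known for driving lysosomal genes, was lower in T (−1.94 ± 0.18, adjusted p = 8.90e-13), E (−1.56 ± 0.18, adjusted p = 3.37e-10), V (−1.31 ± 0.19, adjusted p = 5.78e-08), N (−0.93 ± 0.18, adjusted p = 5.17e-05) and H (−0.84 ± 0.18, adjusted p = 2.00e-04) and was not called in K (0.029 ± 0.18), M (−0.35 ± 0.17) or KPC1 (−0.30 ± 0.18). Tfeb was lower in H and V, where more members rose than fell, and in E, whose member counts are not read as a direction. Whether its transcript bears on the members was not tested. Of 13 genes of lysosomal sorting, 3 were higher, the retromer subunits Vps35, Vps26a and Vps29 (0.20, 0.16 and 0.16), and 1 lower, Ap1m1 (−0.33). Of 4 cathepsin inhibitors tested, Cstb (0.38 ± 0.084) and Cst6 (0.90 ± 0.29) were higher and Cst3 (−0.49 ± 0.17) lower. Of 12 other genes of the V-ATPase, among them Tcirg1 (−0.006 ± 0.077), Ncoa7 (0.42 ± 0.1) and Tmem199 (0.32 ± 0.088) were higher and Dmxl1 (−0.23 ± 0.045) lower. The osteoclast list, which shares Ctsk with the members, had 4 genes tested and 1 higher, Ctsk itself.

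The 9 members whose promoter window held CACGTG were all tested, and no test of a difference from the other members was made. Their median log2 fold change was 0.37 in H, 0.32 in KPC1, 0.23 in V and 0.12 in N, against −0.28 in E, −0.19 in T, −0.077 in M and −0.0021 in K, and in KPC1 9 of 9 were above 0. The 15 tested members with a window and no match had medians of 0.098 in H, 0.13 in KPC1, 0.076 in V, 0.078 in N, −0.0045 in E, 0.0080 in T, −0.084 in M and −0.058 in K. The 9 tested members with no window in the table had medians of 0.33 in H, 0.33 in KPC1, 0.37 in V, 0.052 in N, 0.016 in E, −0.069 in T, 0.13 in M and −0.041 in K. In E, 5 of the 9 with a match, 4 of the 15 without and 3 of the 9 with no window were lower, and in KPC1 the lower members numbered 0, 3 and 3. Of the stretches shown above, those of Lamp1, Atp6v0d1 and Ctsa belong to genes that fell in E and rose in KPC1. Those of Atp6v0b and Atp6v1a belong to genes that rose in both, and that of Ctsd to a gene lower in E and not called in KPC1. The calls of Lamp1, Ctsa and Atp6v1a in KPC1 and of Atp6v1a in E were lost on leaving out 1 replicate number. These are counts over few genes, given as a description.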

How the data were processed

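RNA-seq libraries of 64 samples, 4 for each of 16 groups of line and culture, were analysed. The authors deposited counts per gene (39017 genes) and RPKM values (49585 genes), from mm10 alignments counted with featureCounts, and per the labels edgeR was used. The aligner, annotation and strand setting are not given in the sources used here. Columns were matched to samples by title, and 0 columns were left unused.

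Counts were fitted with edgeR 4.0.16 (R 4.3.3; TMM, filterByExpr, quasi-likelihood test, Benjamini-Hochberg, threshold 0.1 as in the study), per line on all 64 libraries, and with the line as replicate on summed counts for the shared response and for the study's groups. Groups came from the labels, metabolic groups from the study's methods. RPKM served for levels between genes. Promoters came from RefSeq (GRCm38.p6), exon overlaps from GENCODE. The count test was tested on simulated data. Intervals and the floor of 3 counts cover counting error only. Alternatives were DESeq2 1.42.0, limma 3.58.1 on log2(RPKM + 1) or with 0.1 added (values of at least 0.5 in 4 libraries), other scaling, no filter, a threshold of 0.05, a replicate block, a number-series covariate and leave-outs; the block of line by replicate was added after seeing the data.

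Members and lists were chosen with earlier results of these data known. Each member was to be named, with full values for up to 6 of smallest adjusted p per direction of the shared response, up to 3 widest between lines per class above 5 CPM, isoform pairs, up to 3 largest changes per line and direction, and, between groups, those called or the 3 of smallest p; other lists gave counts and up to 3 genes per direction.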

Additional observations from a re-analysis of the deposited data

Results flagged for a closer look

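In 11 of 320 groups of 4 libraries examined, 1 library lay far from the other three, its gap to the nearest of them exceeding Dixon's 95% critical share of the range, where chance gives about 1 in 20 such groups. The total of KPC1 coculture replicate 2 was 11178721 counts against 16016171 to 16755693. Summed CPM stood apart for V0 in N mono-culture replicate 2 (507 against 418 to 433), V1 in K mono-culture replicate 3 (857 against 893 to 898) and the cathepsins in M mono-culture replicate 4 (2161 against 2392 to 2412). In KPC1 mono-culture, Ctsl in replicate 1 was at 837 CPM against 697 to 704, and Ctsc in replicate 3 at 74.9 CPM against 87.9 to 88.6. Atp6v1h stood apart in H coculture replicate 1 (43.8 CPM against 55.1 to 56.5) and T mono-culture replicate 1 (55.9 CPM against 69.5 to 72.1). The remaining libraries were K mono-culture replicate 2 for Atp6v1c1 (59.7 CPM against 69.5 to 71.4), M mono-culture replicate 4 for Ctsb (508 CPM against 558 to 567) and V mono-culture replicate 3 for Atp6v0a1 (199 CPM against 178 to 179).

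For 25 of 33 members the response to coculture differed among the 8 lines by edgeR's quasi-likelihood F test of the interaction, as it did for 71.3% of all genes. Their adjusted p-values were Ctsc (1.68e-09), Atp6v0d1 (1.61e-07), Atp6v1d (6.34e-07), Atp6v1b2 (1.11e-06), Atp6v1h (1.29e-06), Atp6ap1 (2.14e-06), Ctsw (3.86e-06), Atp6ap2 (1.15e-05), Atp6v1c2 (2.20e-05), Ctso (2.86e-05), Atp6v1c1 (9.55e-05), Ctsa (2.86e-04), Ctsh (3.66e-04), Atp6v1a (6.70e-04), Atp6v0b (8.57e-04), Lamp1 (0.0012), Lamp2 (0.00463), Ctse (0.00606), Ctsf (0.00629), Ctsd (0.00823), Atp6v1g1 (0.0125), Atp6v0a4 (0.0293), Atp6v0a2 (0.0338), Ctsb (0.0354) and Atp6v0a1 (0.0407).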

How the results depend on the processing

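At a threshold of 0.05 the members called were 1 higher in K, 1 higher and 2 lower in M, 0 lower in N, 3 lower in KPC1 and 6 higher in the shared response (main counts 2, 3, 5, 3, 6 and 10). Without the filter on low counts they were 1 higher in K, 3 lower in M and 0 lower in N. The number series of the labels (libraries 1 to 43 against 44 to 64, of unstated meaning, all of E in the first and all K mono-cultures in the second) as a covariate gave 2 lower in KPC1. DESeq2 called 1 member lower in the interaction of group and culture, Ctsh, against 0 by edgeR. limma on RPKM with 1 added gave 3 lower in H, 4 higher in K and 2 lower in M, and with 0.1 added 4 higher in K and 5 higher and 1 lower in M. The causes were not tested.

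Same-numbered mono-culture and coculture libraries correlated above 0.1 in 22 of 32 pairs (r from −0.107 to 0.44) and with their own number best in 23 of 32, and all 4 pairs were above 0.1 in M and N (r from 0.143 to 0.44) and in no other line. The labels tie the numbers to no shared culture or day and not all pairs passed 0.1, so the main fit has no block. Its p-values within lines therefore ignore any factor shared by libraries of 1 number. The data hint at such a factor, since 23 of 32 is well above the share that 4 unrelated numbers would give. With the replicate block 2 members were lower in K (1 without it), and the shared response had 14 higher and 6 lower. With a block of line by replicate, added after seeing the data, K had 4 higher and 3 lower.

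Leaving out 1 replicate number gave, higher and lower, 6 to 7 and 9 to 13 members in E, 9 to 16 and 3 to 5 in H, 10 to 15 and 4 to 7 in V, 1 to 2 and 0 to 2 in K, 1 to 3 and 1 to 4 in M, 3 to 7 and 0 to 3 in N, 9 to 11 and 5 to 8 in T, 8 to 15 and 2 to 4 in KPC1, and 8 to 10 and 4 to 5 in the shared response. Differences among lines were then found for 31 to 33 members in mono-culture, 30 to 32 in coculture and 20 to 24 in the response, and the groups gave 0. Members higher in each of H, V and KPC1 then numbered 5 to 10, and 1 to 4 of them were lower in E (main counts 11 and 4). At a threshold of 0.05 these were 8 and 2. Leaving out 1 line, the shared response had 7 to 11 higher and 4 to 6 lower. The log2 fold change of Atp6v0a4 in H ran from −3.47 without replicate 1 to 0.15, a reversal, without replicate 3. Depth limits Atp6v0a4, Atp6v1c2, Ctse and Ctsk, where 3 counts are 0.139 to 0.283 CPM.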
